A study of Homo sapiens with 6 samples.

Results

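Aminoacyl-tRNA synthetases, the enzymes that load each tRNA with its amino acid, were followed in the Hodgkin lymphoma cell line L1236. Members were the array rows whose annotation named exactly 1 symbol of the form of AARS or AARS2 with any first letter, or EPRS, FARSA, FARSB, AIMP1, AIMP2 or EEF1E1, with the brightest row kept for each symbol. They came to 37 of 18607 genes: 20 cytoplasmic enzymes, 16 mitochondrial enzymes, whose symbols end in 2, and EEF1E1. No row carried the symbols AIMP1 and AIMP2, since the annotation has these genes as SCYE1 and JTV1, and the rows of VARS2 also name GTF2H4, so these 3 genes were not members. VARS had 2 rows, and 1 was taken. The other members had 1 row each, of 21 to 48 probes. Symbols are those of the array annotation, and many cytoplasmic ones now end in 1 (AARS is AARS1).

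Most synthetases recognise 1 amino acid and its tRNAs, and join them at the cost of ATP. EPRS charges both glutamate and proline, and FARSA and FARSB, subunits of the phenylalanine enzyme, were counted as separate members. Human cells keep separate sets for the cytosol and for mitochondria, both encoded in the nucleus. GARS and KARS serve both places from 1 gene, and QARS has no mitochondrial counterpart. Several cytoplasmic enzymes sit in a multisynthetase complex held together by the scaffold proteins AIMP1, AIMP2 and EEF1E1. Uncharged tRNA activates the kinase GCN2, which raises translation of the transcription factor ATF4, and ATF4 is known to switch on many cytoplasmic synthetase genes.

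Total RNA was measured on 6 gene expression arrays, 1 for each of 3 agents at 2 times. The groups were 100 nM leukotriene D4 (LTD4) in its methanol vehicle, 0.1% methanol alone and untreated cells, each at 1 h and at 8 h. Cells given LTD4 or methanol were resuspended in medium without serum. The medium of the untreated cells is not stated, so methanol and a change of medium cannot be told apart in any comparison with untreated cells. L1236 is 1 line, and a lower signal in all cells or in some of them cannot be told apart in bulk RNA.

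Intensities below are the deposited values after quantile normalization, which gives each array the same distribution. It was applied because the quartiles of the deposited values differed between arrays by amounts that varied with brightness. The deposited median of all probesets was 154 on the untreated array of 8 h and between 188 and 228 on the others. Differences are on the scale of log2(intensity + 16), and 11291 genes were tested, those with a mean of at least 7.77 on that scale, an intensity of 202. All 37 members passed. The 45 antigenomic probesets, background controls with no human target, had medians of 40.0 to 58.5 per array, and all members lay above that median on each array. Their 95th percentile was 1224. All 6 arrays reached it in 18 of 20 cytoplasmic rows and in 3 of 16 mitochondrial rows, while 12 mitochondrial rows reached it on no array. The brightness of a row depends on its probes, so it does not rank the genes by RNA. The 10 Hodgkin cell markers, such as CD274 and IRF4, all passed the limit of 202, against 3 of 6 B cell, 1 of 5 T cell, 1 of 4 myeloid and 1 of 4 fibroblast markers. Their summed intensities per array were 18294 to 19837 for Hodgkin cells, 2175 to 2613 for B cells, 588 to 765 for T cells, 526 to 727 for myeloid cells and 436 to 492 for fibroblasts.

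The first comparison set methanol against untreated cells. In all, 3 mitochondrial enzymes were lower with methanol: MARS2, which charges the methionine tRNA of mitochondria, fell by 0.73 (SE 0.13, adjusted p = 0.0111), EARS2, the glutamate enzyme, by 0.62 (SE 0.15, adjusted p = 0.0301) and LARS2, the leucine enzyme, by 0.51 (SE 0.14, adjusted p = 0.0489). These came from limma's additive fit of agent and time over the 6 arrays, adjusted over all tested genes by the Benjamini-Hochberg method. Of the 16 mitochondrial enzymes 3 were lower and 0 higher, and of the 20 cytoplasmic enzymes 0 were lower and 0 higher. Of all tested genes 6.47% were called, 3.57% lower and 2.9% higher. At an unadjusted p under 0.05, 8 mitochondrial and 4 cytoplasmic enzymes were lower and 0 of either class higher, while 25.1% of all tested genes passed that limit in either direction.

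MARS2 had intensities of 314 at 1 h and 522 at 8 h with methanol, against 574 and 816 in untreated cells. With LTD4 it stood at 357 and 509.7, so both arrays of each time with methanol in the medium lay below the untreated one. Its row spans 198278332-198281359 on chromosome 2, in the coordinates of the array annotation, whose build no source used here names. EARS2 had 192 and 298 with methanol and 346 and 408 in untreated cells, and 235 and 256 with LTD4. LARS2 had 567 and 662 with methanol and 795 and 965 in untreated cells, and 632 and 600.5 with LTD4. In all 3 genes the highest array with methanol or LTD4 lay below the lowest untreated array. These genes were called on the same arrays. The share of all tested genes separated in this way was not counted, here or for the members below. The EARS2 row lies on chromosome 16 at 23440838-23476172 and the LARS2 row on chromosome 3 at 45405072-45565332, in the same unnamed build.

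The calls rested on few arrays and on the scaling. A single remaining LTD4 array does not enter the difference of methanol and untreated cells, so leaving out either LTD4 array is the same fit. Leaving out either LTD4 array gave 5 lower members, TARS2 (adjusted p = 0.0388) and WARS2 (adjusted p = 0.0394) being added, with 6.06% of all tested genes lower. Without the methanol array of 1 h the differences were -0.63 for MARS2 (adjusted p = 0.166), -0.40 for EARS2 (0.389) and -0.45 for LARS2 (0.373), without the untreated array of 1 h they were -0.68 (0.052), -0.55 (0.164) and -0.61 (0.108), and LARS2 also lost its call without the methanol array of 8 h (-0.56, adjusted p = 0.0909) or the untreated array of 8 h (-0.40, adjusted p = 0.327). On the deposited scale, where the median of all tested genes stood at 0.13, they were -0.49, -0.28 and -0.35 with no call, and at 8 h EARS2 then had 335 with methanol and 336 in untreated cells. With each array centred on its median, MARS2 (-0.63, adjusted p = 0.0186), TARS2 (-0.50, adjusted p = 0.0375), IARS (-0.50, adjusted p = 0.0383) and AARS (-0.50, adjusted p = 0.0396) were the 4 lower members, while LARS2 stood at -0.49 (adjusted p = 0.0502) and EARS2 at -0.42 (adjusted p = 0.0693). LARS2 also missed the threshold with an offset of 1 before log2, at -0.52 (adjusted p = 0.055).

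**Figure D1:**
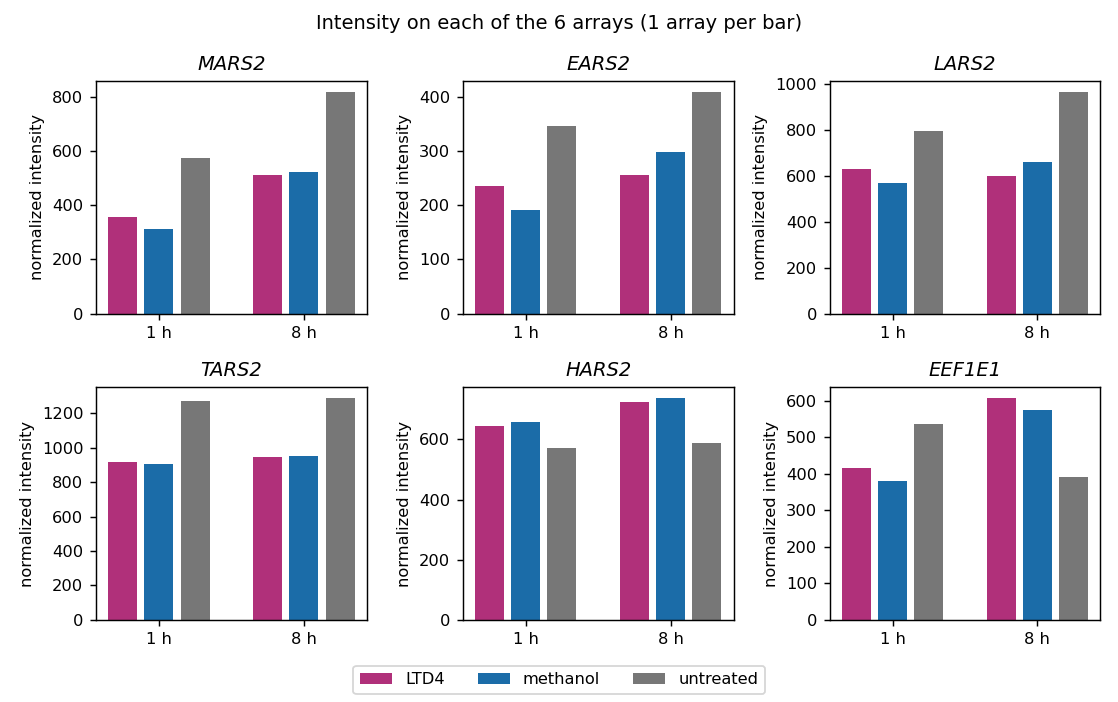
Normalized intensity (linear axis from 0) of MARS2, EARS2, LARS2, TARS2, HARS2 and EEF1E1 on each array, 1 bar per array, for LTD4, methanol and untreated cells at 1 h and 8 h. MARS2, EARS2, LARS2 and TARS2 were highest on the untreated array of each time, HARS2 was lowest there, and EEF1E1 was highest there at 1 h and lowest at 8 h.

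The 250 bases before the gene starts of these 3 mitochondrial enzymes are shown because they are the members called lower in the same comparison. Sequences are from RefSeq on GRCh38.p14, read 5′ to 3′ on the gene's strand, with motif matches in capitals. MARS2 lies at chr2:197705119-197705368 (plus strand), EARS2 at chr16:23557351-23557600 (minus strand) and LARS2 at chr3:45388326-45388575 (plus strand).
MARS2: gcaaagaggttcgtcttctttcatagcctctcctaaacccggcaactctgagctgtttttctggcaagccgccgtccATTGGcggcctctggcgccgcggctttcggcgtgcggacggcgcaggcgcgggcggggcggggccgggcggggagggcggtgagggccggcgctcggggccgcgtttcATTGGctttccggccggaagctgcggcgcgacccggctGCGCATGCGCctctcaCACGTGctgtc
EARS2: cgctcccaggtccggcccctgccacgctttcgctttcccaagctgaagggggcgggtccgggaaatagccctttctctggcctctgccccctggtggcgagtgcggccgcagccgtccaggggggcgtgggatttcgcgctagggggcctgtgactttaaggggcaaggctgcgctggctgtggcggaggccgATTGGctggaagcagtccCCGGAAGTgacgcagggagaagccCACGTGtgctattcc
LARS2: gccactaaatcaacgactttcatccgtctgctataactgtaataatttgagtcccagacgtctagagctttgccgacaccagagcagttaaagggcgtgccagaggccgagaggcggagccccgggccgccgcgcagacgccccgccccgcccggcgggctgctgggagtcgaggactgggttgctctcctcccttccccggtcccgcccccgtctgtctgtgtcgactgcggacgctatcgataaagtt
The motifs searched on both strands were the E-box CACGTG, bound by MYC family factors, the ETS motif CCGGAAGT, the CCAAT box CCAAT, the core of the NRF1 site and the element TGATGNAA, bound by ATF4 with C/EBP partners. MARS2 held an E-box at -11 to -6, an NRF1 core at -27 to -18 and 2 CCAAT boxes, and EARS2 held an E-box at -15 to -10, an ETS motif at -39 to -32 and a CCAAT box. LARS2 held none of these letters. Over the 31 members with a sequence, the E-box was present in 2 of 14 mitochondrial (MARS2 and EARS2) and 1 of 16 cytoplasmic promoters (IARS), against 6.49% of 27305 promoters. The ATF4 element was present in AARS and IARS among 16 cytoplasmic and in YARS2 among 14 mitochondrial promoters, against 3.19% of all. The NRF1 core was found in MARS2 alone of the members, against 1.13% of all promoters, the ETS motif in 4 cytoplasmic and 3 mitochondrial promoters against 3.64%, and the CCAAT box in 7 and 9 against 33%. These matches describe letters and no measured binding.

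The other 13 mitochondrial enzymes did not pass the adjusted test in this fit, and 5 of them (TARS2, WARS2, FARS2, NARS2 and IARS2) had an unadjusted p under 0.05. TARS2, the threonine enzyme, had 906 at 1 h and 951 at 8 h with methanol, against 1275 and 1289 in untreated cells, a difference of -0.46 (adjusted p = 0.0529). WARS2, the tryptophan enzyme, had 237 and 289 with methanol and 356 and 378 in untreated cells, a difference of -0.46 (adjusted p = 0.0544). For both genes the arrays with methanol lay below both untreated arrays. NARS2 stood at -0.61 at 1 h and -0.10 at 8 h, FARS2 at -0.45 and -0.25, IARS2 at -0.28 and -0.30, and SARS2 at -0.34 and -0.17. CARS2 (-0.26 and -0.14), YARS2 (-0.35 and -0.01) and AARS2 (-0.15 and -0.09) were below 0 at both times as well, while RARS2 was at -0.41 and 0.07.

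HARS2 and PARS2 stood on the other side. HARS2, the mitochondrial histidine enzyme, had 656 at 1 h and 737 at 8 h with methanol, 571 and 589 in untreated cells, and 644 and 724 with LTD4. All 4 arrays with methanol in the medium were above both untreated arrays, and the fitted difference was 0.26 (SE 0.13, unadjusted p = 0.0735). Its neighbour HARS, the cytoplasmic histidine enzyme, differed by -0.17 at 1 h and 0.06 at 8 h. The rows of the pair lie 46 bases apart on opposite strands of chromosome 5, and their promoter windows overlap and share the same 2 ETS motifs, which were thus counted for both genes. PARS2, the proline enzyme, differed by 0.26 at 1 h, with 1789.9 with methanol and 1491 in untreated cells, and by 0.00 at 8 h, with 1546 and 1543.

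Between 2 arrays of 1 time, a change of 1.5-fold was reached by 3 members at 1 h, all lower with methanol (MARS2, EARS2 and NARS2), and by MARS2 at 8 h. Among all tested genes 5.46% were lower and 4.06% higher by 1.5-fold at 1 h, and 1.59% and 3.08% at 8 h. These differences of single arrays had no test.

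No cytoplasmic synthetase passed the adjusted test in this fit, where 4 of 20 had an unadjusted p under 0.05. AARS, the alanine enzyme, had 1949.8 at 1 h and 2007 at 8 h with methanol and 2462 and 2739.7 in untreated cells, a difference of -0.39 (adjusted p = 0.0926). IARS, the isoleucine enzyme, had 2381 and 2825 with methanol and 3176 and 3482 in untreated cells, a difference of -0.36 (adjusted p = 0.121). In both genes the methanol arrays lay below both untreated arrays. VARS (-0.31) and CARS (-0.30) were the other cytoplasmic enzymes with an unadjusted p under 0.05. With a mean-variance trend in limma AARS (adjusted p = 0.0387) and IARS (adjusted p = 0.0458) were called lower, with 5.38% of all tested genes lower.

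Of the 8 enzymes of the multisynthetase complex 6 were below 0 in the fit, and the median of the 8 was -0.16. The 6 were IARS, LARS (-0.22), EPRS (-0.22), which charges both glutamate and proline, QARS (-0.17), MARS (-0.15) and DARS (-0.04). KARS stood at 0.03 and RARS at 0.05. Of the 12 outside the complex 9 were below 0, with a median of -0.14. Beside AARS, VARS and CARS these were YARS (-0.22), TARS (-0.21), FARSA (-0.15), GARS (-0.12), HARS (-0.06) and WARS (-0.00), and NARS (0.03), SARS (0.13) and FARSB (0.20) were above 0. FARSA and FARSB, the 2 subunits of the phenylalanine enzyme, thus lay on opposite sides without a call. After centring 8 of 8 enzymes of the complex and 10 of 12 outside it were below 0, so KARS, RARS and NARS changed sign there. KARS had 3142 and 3296 with methanol, 3138 and 3179.6 in untreated cells and 3229 and 3195 with LTD4, a narrow range over all 6 arrays.

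**Figure D2:**
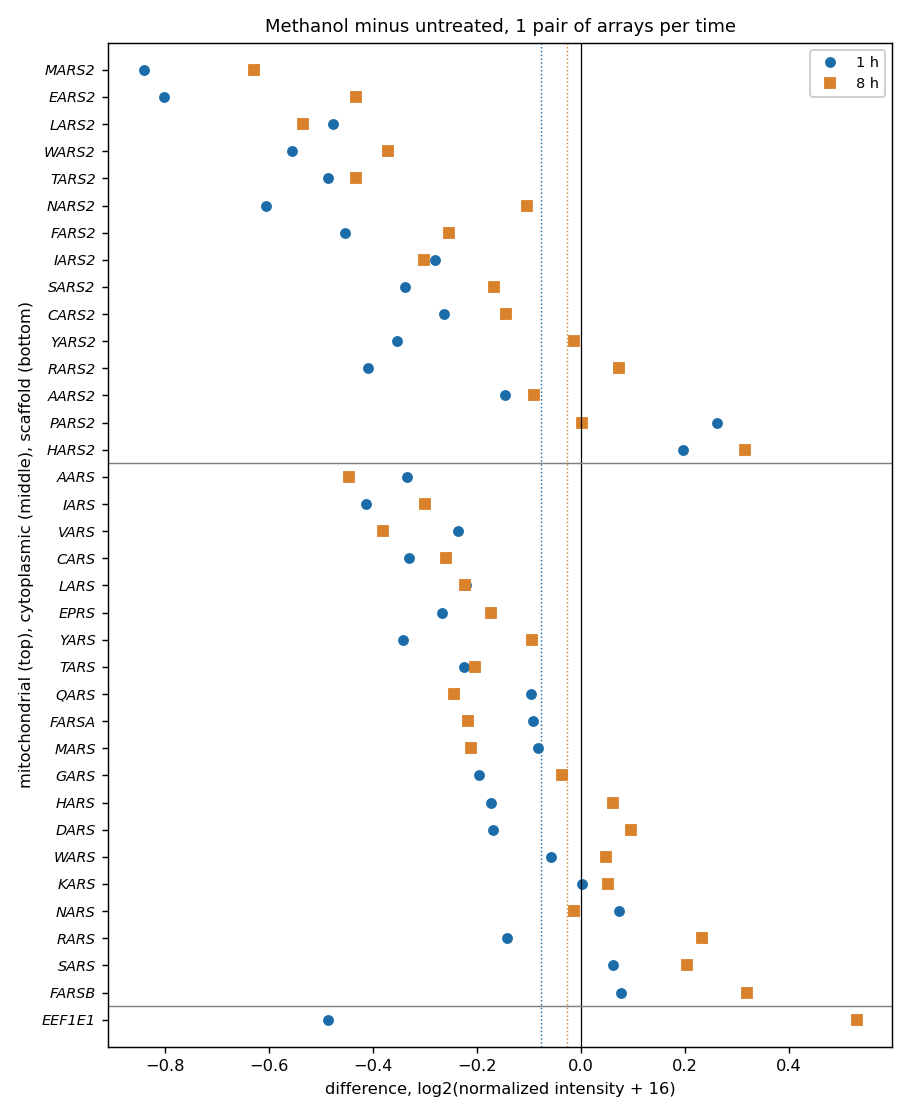
Difference of methanol minus untreated at 1 h (circles) and 8 h (squares) on the log2 scale for each member, grouped as mitochondrial, cytoplasmic and scaffold and sorted within each by the mean of both times. Dotted lines are the medians of all tested genes. MARS2, EARS2 and LARS2 lay below 0 at both times and HARS2 above 0 at both, and 1 member is not plotted.

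Taking each class as a whole, the fitted difference for methanol was below 0 in 14 of 16 mitochondrial enzymes, with a median of -0.27, and in 15 of 20 cytoplasmic ones, with a median of -0.15. Of all tested genes 57.3% were below 0, with a median of -0.05. The difference was below 0 at both times in 13 of 16 mitochondrial and 12 of 20 cytoplasmic enzymes, against 41.3% of all genes. On the deposited scale it was so in 5 of 16 and 3 of 20, against 9.18% of all genes, and after centring in 12 of 16 and 17 of 20, against 38%. Pairs were formed only where both symbols differ by the final 2 alone. In these 13 pairs the mitochondrial enzyme stood lower in 8 and higher in 5. EARS2, PARS2 and FARS2 were thus left out of the pairs. EARS2 was at -0.62 and PARS2 at 0.13, with EPRS, which charges glutamate and proline, at -0.22. FARS2 was at -0.35, with FARSA at -0.15 and FARSB at 0.20. MARS2 minus MARS was -0.59 and AARS2 minus AARS 0.27, and after centring these were -0.35 and 0.55. This order of the classes turned with the scaling. With centring of each array's log2 values in place of quantile normalization, the medians were -0.25 for the mitochondrial and -0.28 for the cytoplasmic enzymes, 13 of 16 and 18 of 20 were below 0, against 51.5% of all tested genes, and the mitochondrial enzyme was lower in 7 of 13 pairs. AARS2 stood at 0.05 on that scale. The difference between the classes was not tested. The classes also differ in signal, with a median of 9.27 for the means of the mitochondrial rows and 11.36 for the cytoplasmic rows. Tested genes within the range of the mitochondrial means had a median difference of -0.05 and those within the cytoplasmic range -0.02. After centring these medians were -0.00 and -0.11, with 50.3% and 67.3% of the genes below 0.

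**Figure D3:**
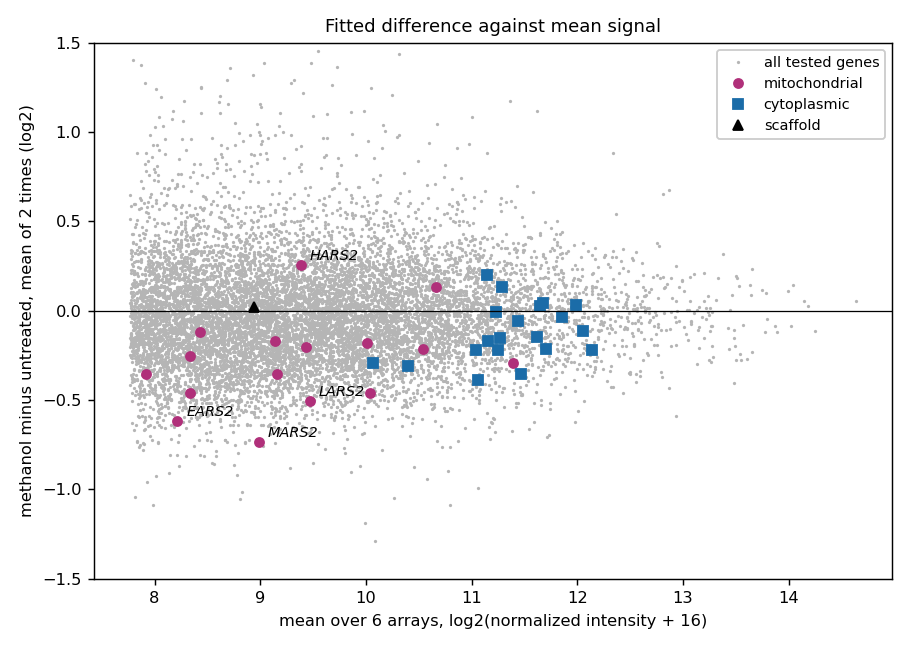
Mean of the 6 arrays on the log2 scale (horizontal) against methanol minus untreated, mean of both times (vertical), for 11291 tested genes (grey) and the members by class, with 17 other genes outside the vertical range of 1.5. MARS2, EARS2 and LARS2 lie lowest and HARS2 highest among the mitochondrial enzymes.

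On the deposited scale the array of untreated cells at 8 h was dim throughout, and the median of all tested genes for methanol minus untreated was -0.10 at 1 h and 0.35 at 8 h. The mitochondrial medians there were -0.42 and 0.22 and the cytoplasmic ones -0.37 and 0.10. So at 8 h both class medians were above 0 and below that of all tested genes.

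EEF1E1, a scaffold protein of the complex, differed in direction between times. It had 379 with methanol and 536 in untreated cells at 1 h, and 573 with methanol and 392 in untreated cells at 8 h, differences of -0.49 and 0.53. LTD4 cells had 415 and 606. The interaction of agent and time cannot be tested with 1 array per group. SCYE1 (AIMP1) differed by -0.03 and 0.21 and JTV1 (AIMP2) by -0.01 and -0.29.

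Genes around the synthetases were called in both directions, and their counts stand against 2.9% of all tested genes higher and 3.57% lower. DDIT3, the stress factor CHOP, had 1643 at 1 h and 1458 at 8 h with methanol and 866 and 707 in untreated cells, with 1634 and 1520.0 with LTD4, and rose by 0.97 (adjusted p = 0.00301). Of 18 tested genes of the integrated stress response and ATF4 target list it was the 1 higher gene, and PSPH, an enzyme of serine synthesis (-0.68, adjusted p = 0.0137), and SESN2, a leucine sensor (-0.52, adjusted p = 0.0415), were the 2 lower ones. ATF4 stood at 0.05, ASNS, asparagine synthetase, at -0.17 and TRIB3, a pseudokinase induced by ATF4, at -0.50 (adjusted p = 0.0622). Of 16 genes of amino acid sensing 0 rose and 3 fell, SESN2, RRAGC, a Rag GTPase of mTORC1 (-0.59, adjusted p = 0.0263), and SAMTOR, an S-adenosylmethionine sensor listed as FLJ31818 (-0.54, adjusted p = 0.0329). Of 13 other genes of tRNA charging and editing PTRH2, a peptidyl-tRNA hydrolase, rose by 0.55 (adjusted p = 0.0337). Of 21 genes of tRNA maturation and export POP7, a protein of RNase P, rose by 0.65 (adjusted p = 0.0167) and TSEN34, of the tRNA splicing endonuclease, fell by 0.61 (adjusted p = 0.0206). None of 11 mitochondrial translation factors and none of 6 cytoplasmic elongation factors was called, with medians of 0.03 and -0.10.

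The comparison of 8 h with 1 h over the 3 agents called 1 member. MARS2 rose by 0.57 at 8 h (SE 0.11, adjusted p = 0.0245), with 509.7 at 8 h against 357 at 1 h with LTD4, 522 against 314 with methanol and 816 against 574 in untreated cells. It was higher in 3 of 3 agents, by 0.49, 0.71 and 0.50. Of the 16 mitochondrial enzymes 1 was higher and 0 lower, of the 20 cytoplasmic ones 0 were higher and 0 lower, and of all tested genes 2.63% were called, 1.36% higher and 1.27% lower. At an unadjusted p under 0.05, 3 mitochondrial enzymes and 1 cytoplasmic one were higher and 1 cytoplasmic one lower, while 20.3% of all tested genes passed in either direction. The call was lost on the deposited scale, at 0.56 (adjusted p = 0.109). It was also lost, at 0.50, without the methanol array of 1 h or of 8 h, which is the same fit for time.

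Without a call in this fit, EARS2 stood at 0.31, FARS2 at 0.31 and the cytoplasmic FARSA at 0.33 (adjusted p = 0.119). With a mean-variance trend FARSA was called higher beside MARS2, with 2.29% of all tested genes higher. FARSA had 2646, 2596 and 3019 at 8 h against 1939.8, 2241 and 2389 at 1 h with LTD4, with methanol and in untreated cells, so it was higher in 3 of 3 agents. CARS, the cysteine enzyme, stood at -0.26 and was below 0 in 3 of 3. EEF1E1 stood at 0.53 with LTD4, 0.58 with methanol and -0.44 in untreated cells. Without the untreated array of 1 h or of 8 h its fitted difference was 0.55, against 0.22 (adjusted p = 0.479) with all 6 arrays. Leaving out either untreated array gives the same fit for time, in which the -0.44 of untreated cells does not enter. JTV1 differed by 0.43 (adjusted p = 0.0705). The tRNA maturation genes TRMT1, a tRNA methyltransferase, and RPP40, a protein of RNase P, rose by 0.55 (adjusted p = 0.0338) and 0.55 (adjusted p = 0.047).

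The mean over agents was above 0 in 15 of 16 mitochondrial enzymes, PARS2 at -0.04 being the other, with a median of 0.16. It was above 0 in 12 of 20 cytoplasmic enzymes, with a median of 0.04. Of all tested genes 42.5% were below 0, with a median of 0.03. In all, 9 mitochondrial and 5 cytoplasmic enzymes were higher at 8 h in all 3 agents, against 26.1% of all genes. The counts were 6 and 5 after centring, against 20.3%, and 3 and 3 on the deposited scale, against 16.6%. After centring the mitochondrial median was 0.09 and the cytoplasmic one 0.03, with 15 of 16 and 13 of 20 above 0. On that scale 52.1% of all tested genes were below 0, with a median of -0.01. In the same 13 pairs, without EARS2, PARS2 and FARS2, the mitochondrial enzyme stood above the cytoplasmic one in 11, and after centring in 7. By agent the mitochondrial medians were 0.12 with LTD4, 0.26 with methanol and 0.07 in untreated cells. In the same order the cytoplasmic medians were 0.02, 0.07 and 0.02, and those of all tested genes 0.03, 0.07 and 0.01. The methanol arrays of both times also enter the comparison with untreated cells, so the 2 comparisons share arrays.

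**Figure D4:**
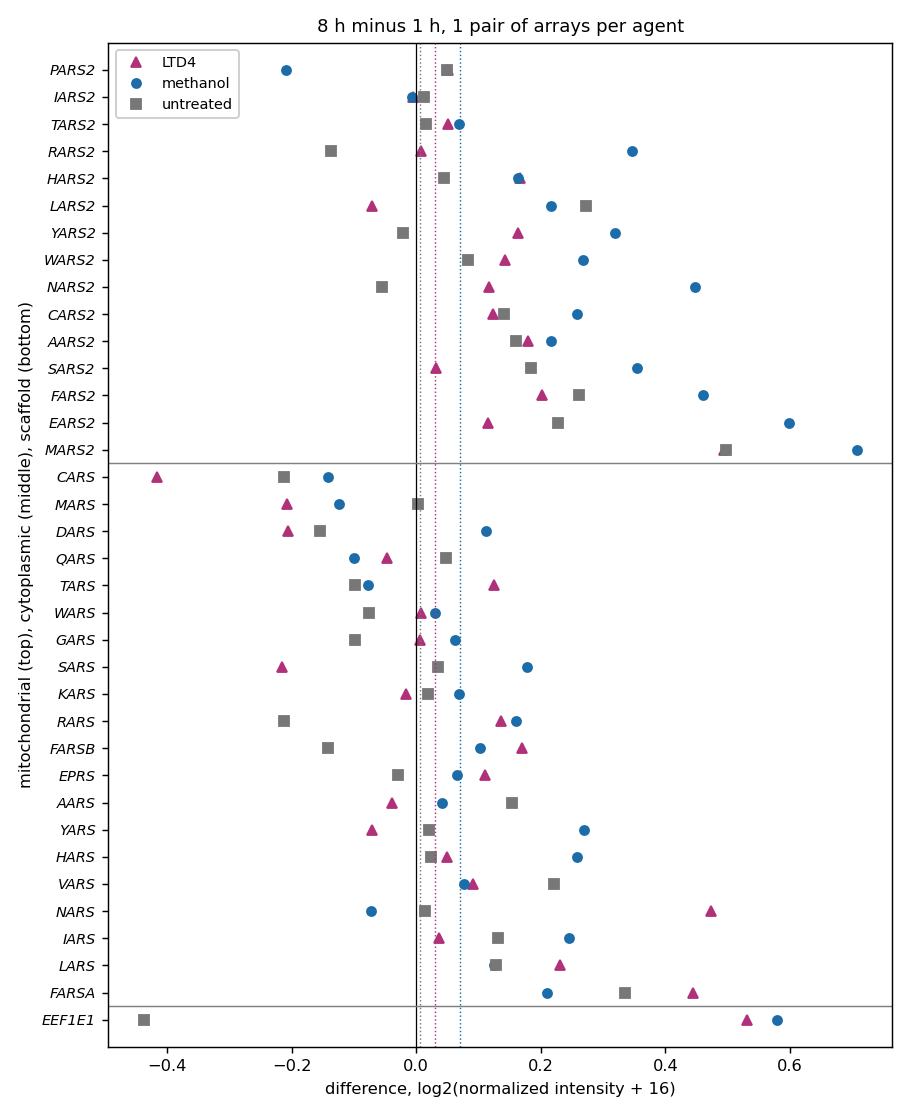
Difference of 8 h minus 1 h on the log2 scale for each member with LTD4 (triangles), with methanol (circles) and in untreated cells (squares), grouped by class and sorted by the mean of the 3. Dotted lines are the medians of all tested genes. MARS2 was at 0.49 or higher with each agent, EEF1E1 was below 0 in untreated cells alone, and 1 member is not plotted.

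LTD4 was compared with its methanol vehicle to ask whether the leukotriene itself changed the synthetases. No member was called in either direction by limma, and 0 of 37 reached an unadjusted p under 0.05, also with a mean-variance trend, while 0.00886% of all tested genes were called and 0.833% passed the unadjusted limit. The fitted differences lay between -0.10 for DARS and 0.19 for WARS2, with standard errors of 0.13 to 0.21. These errors do not show that LTD4 was without effect.

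At 1 h 0 of 37 members differed by 1.5-fold in either direction, against 0.744% of all tested genes higher and 1.21% lower. The members farthest from 0 were EARS2 at 0.27, with 235 with LTD4 and 192 with methanol, and NARS, the asparagine enzyme, at -0.27, with 3475 and 4182. At 8 h 0 members passed as well, against 0.0709% higher and 0.221% lower. NARS then stood at 0.28, with 4830 with LTD4 and 3976 with methanol, and DARS at -0.26, with 3248 and 3890. Of 16 mitochondrial enzymes 12 were above methanol at 1 h, with a median of 0.13, and 3 at 8 h, with a median of -0.05. The cytoplasmic medians were 0.03 and -0.03, and those of all tested genes 0.03 and -0.01. Of all tested genes 42.9% were below methanol at 1 h and 51.4% at 8 h. After centring 12 mitochondrial enzymes were above methanol at 1 h, with a median of 0.07, and 5 at 8 h, with a median of -0.025. On that scale 50.5% and 43.7% of all tested genes were below methanol.

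The LTD4 cells also received methanol, so the LTD4 and methanol arrays were set together against the untreated ones in the same fit. By limma 6 members were lower, MARS2 (-0.70, adjusted p = 0.00397), EARS2 (-0.60, adjusted p = 0.0117), LARS2 (-0.50, adjusted p = 0.0194), TARS2 (-0.46, adjusted p = 0.0215), AARS (-0.43, adjusted p = 0.0288) and FARS2 (-0.39, adjusted p = 0.0467), and 0 were higher. Of all tested genes 7.62% were lower and 5.32% higher. This fit uses the same untreated arrays as that of methanol alone, so it adds no independent untreated sample.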

How the data were processed

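In all, 2 deposited tables covered total RNA of 6 arrays. The authors' gene-level intensities are linear, 1 column per array, for 33297 probesets, and the second table held the same 199782 values. Per the submitters' processing notes, RMA and Affymetrix Expression Console were used, with no versions. The deposited table's name carries PLIER, another summary method, and no source used here says which of them made the intensities. Of the probesets 19479 named 1 symbol, 1032 several and 12786 none.

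Intensities were quantile-normalized over all probesets, 16 was added, log2 taken, and genes with a mean at or above the median of all probesets were kept. limma 3.58.1 in R 4.3.3 (lmFit, eBayes) fitted agent and time additively, with 2 residual degrees of freedom and 10.9 prior ones. P-values were adjusted by Benjamini-Hochberg, with a threshold of 0.05. The labels name no repeat cultures, so p-values reflect only how these arrays vary, possibly for technical reasons, and 6 arrays limit the precision. The code was tested on simulated data.

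Members, lists and alternatives were chosen with earlier results of these data known. All members but 1, which is not reported here, were named. Of the other lists, up to 4 called genes with the greatest difference and DDIT3, ATF4, ASNS and TRIB3 were named, and JTV1 and SCYE1 in addition. Alternatives were no scaling, centring, an offset of 1 or 64, a strict filter on the highest array or none, the second table, a mean-variance trend and leaving out each array.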

Additional observations from a re-analysis of the deposited data

Results flagged for a closer look

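EEF1E1, the scaffold protein, differed by -0.49 between methanol and untreated cells at 1 h and by 0.53 at 8 h. The later difference less the earlier one was 1.02. It was noted because the 2 times lay on opposite sides, each by more than a set minimum. With 1 array per group the difference was not tested.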

How the results depend on the processing

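For methanol against untreated cells, 3 members were lower. The count was 0 on the deposited scale, 0 with no filter, 1 (TARS2) with the strict filter on the highest array, 6 with a mean-variance trend, 6 with the LTD4 and methanol arrays combined, and 0 to 5 when 1 array was left out. It was 5 without either LTD4 array and 0 without the methanol or the untreated array of 1 h. For 8 h against 1 h, 1 member was higher. The count was 0 on the deposited scale, 0 with no filter, 0 with the strict filter and 2 (MARS2 and FARSA) with the trend. The call of MARS2 was lost when the methanol array of 1 h or of 8 h was left out. EEF1E1 joined MARS2 when the untreated array of 1 h or of 8 h was left out. For time, leaving out either array of an agent gives the same fit. Of all tested genes, 3.57% were lower with methanol as reported, 0.257% on the deposited scale, 0.226% with no filter, 5.98% with the strict filter, 5.38% with the trend, 7.62% with the arrays combined, 6.06% without either LTD4 array, and 0.0974% and 0.877% without the methanol and the untreated array of 1 h. For 8 h the shares higher were 1.36% as reported, 0.372% on the deposited scale, 0.0161% with no filter, 1.72% with the strict filter, 2.29% with the trend and 0.0354% to 1.96% with 1 array left out. The strict filter leaves MARS2, EARS2 and LARS2 untested, and with no filter 18607 genes were tested. At 1.5-fold, the 3 members lower with methanol at 1 h became 1 after centring (2.8% of all tested genes), 0 under the strict filter (2.74%), 15 at the lower fold limit tried (21.6%) and 0 at 2-fold (0.399%). The 1 lower at 8 h became 0 on the deposited scale (0.168%), 0 under the strict filter (1.77%), 7 at the lower limit (12.1%) and 0 at 2-fold (0.142%), and the 0 higher became 3 on the deposited scale (22.1%), 1 after centring (3.96%) and 1 at the lower limit (11.7%). On the deposited scale the median for methanol at 1 h moved to -0.37 in cytoplasmic enzymes, at 8 h to 0.10 in cytoplasmic and 0.22 in mitochondrial enzymes, and over both times to -0.11 in mitochondrial ones. After centring the cytoplasmic median at 8 h was -0.28. The cause of these shifts was not tested. The members called in at least 1 setting numbered 8 for methanol and 3 for time, and 0 for LTD4 against methanol, and no called value changed sign. FARS2, called lower with the LTD4 and methanol arrays combined, stood at 0.02 without a call on the deposited scale for methanol alone. No pairing by replicate was possible because the labels give no replicate numbers and each group is 1 array. The additive fit did compare agents within each time, and times within each agent.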
